A study of Mus musculus with 10 samples.

Results

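The Fanconi anemia core and ID complex genes are a set of 10 repair genes: Fanca, Fancb, Fancc, Fance, Fancf, Fancg and Fancl of the core complex, its chromatin anchor Fancm, and Fanci and Fancd2, which form the ID complex. The members were chosen by gene name among the 55487 genes of the deposited table, with earlier results of these data known, so that their changes are described here and are not independent support for any pattern. All 10 passed the filter on low counts, which 18956 genes passed in all.

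RNA was sequenced from 10 ovaries of mice with the C57BL/6J background, 1 library per sample. Control was 8 weeks old (n = 4), Aged was 11 months old by the labels (n = 3), and Aged+CF was of the same labelled age (n = 3) and received cell-free fat extract (CEFFE), a protein-containing liquid prepared from adipose tissue, as 200 µL at 3 µg/µL through the tail vein, given every 2 days for 2 weeks. Control and Aged mice received saline. Every mouse had been given 10 IU of PMSG, a gonadotropin that drives follicle growth, 48 h before collection. Ovaries are named below by group and by the number in their title, and each library held between 15761789 and 21318254 counted reads.

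The Fanconi anemia pathway repairs DNA interstrand crosslinks, which block replication and transcription. When a replication fork stalls at a crosslink, the core complex is brought to chromatin by FANCM and acts as a ubiquitin ligase, with FANCL as the catalytic subunit and UBE2T as its ubiquitin-conjugating enzyme. Its substrates are FANCI and FANCD2, and the ubiquitinated pair brings in nucleases and the homologous recombination proteins. Loss of these genes in mice depletes germ cells and lowers fertility.

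In Aged ovaries 3 of the 10 members, Fanci, Fancd2 and Fanca, were lower than in Control by 2.66-fold to 3.19-fold, and the other 7 did not pass edgeR's test at an adjusted p. DESeq2 and limma on log2 FPKM each called Fancb lower as well. Of all genes tested, edgeR called 6.06% lower at an adjusted p. With the extract, the same 3 genes and Fancb were above Aged by 1.60-fold to 2.15-fold in edgeR, at an unadjusted p only. Of all genes tested, 3.91% were called higher there at an unadjusted p. DESeq2 called Fancd2 higher at an adjusted p, and limma on log2 FPKM called no member. The shares of all genes called by DESeq2 and by limma were not counted, so their calls have no background here. The core genes Fancc, Fance, Fancf, Fancg and Fancl, and Fancm, passed no test in any comparison. A gene was called when its fold change was at least 1.5 and its p in edgeR's quasi-likelihood test was below 0.05, either after Benjamini-Hochberg adjustment over all genes tested or without adjustment. The study calls its samples biological replicates, but the labels do not tie each ovary to its own mouse, so p-values measure the spread between these ovaries.

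Fanci and Fancd2 form the clamp that is ubiquitinated by the core complex. Fanci (chromosome 7, 79391929 to 79450264, plus strand, GRCm38) was at 11.1, 13.2, 10.5 and 11.3 counts scaled to library size (CPM) in Control 31, 32, 33 and 34, at 5.49, 4.09 and 1.82 CPM in Aged 31, 33 and 34, and at 8.08, 6.20 and 8.25 CPM in Aged+CF 30, 32 and 34. None of the 3 groups overlapped another, with Control highest, Aged lowest and Aged+CF between them. Aged 34 was the lowest ovary and rested on 33 reads, against 58 and 92 reads in the other Aged ovaries. The log2 fold change of Fanci in Aged against Control was -1.61 (SE 0.31, 95% interval -2.31 to -0.90), with an adjusted p of 0.0123 in edgeR's quasi-likelihood test.

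Fancd2 (chromosome 6, 113531682 to 113597017, plus strand) was at 10.3, 17.0, 11.1 and 13.7 CPM in the 4 Control ovaries, at 5.01, 5.36 and 1.93 CPM in the Aged ovaries and at 9.002, 7.70 and 9.66 CPM in the Aged+CF ovaries, each in the order given for Fanci. The groups again did not overlap, and Aged 34 was again lowest. Its log2 fold change in Aged against Control was -1.67 (SE 0.33), the largest fall among the members, with an adjusted p of 0.0126. The FPKM (fragments scaled to gene length and library size) of Fanci divided by that of Fancd2 ran from 1.08 to 1.50 over Control ovaries, 1.06 to 1.52 over Aged and 1.12 to 1.25 over Aged+CF ones, so that the ranges of the ratio overlapped in all 3 groups.

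Fanca, a large core subunit that pairs with FANCG, was the only core gene that edgeR called at an adjusted p. It lies on chromosome 8, 123268300 to 123318576, minus strand, and it was at 19.0, 20.6, 18.8 and 19.7 CPM in Control, at 8.71, 8.54 and 4.80 CPM in Aged and at 14.7, 10.3 and 11.2 CPM in Aged+CF. The 4 Control ovaries lay close together, with a mean of 19.5 CPM ± 0.818 (SD, n = 4), against 7.35 ± 2.21 (n = 3) in Aged and 12.1 ± 2.31 (n = 3) in Aged+CF, and no 2 groups overlapped. The log2 fold change in Aged against Control was -1.41 (SE 0.22, adjusted p = 0.0059, edgeR). Fancg, its partner (chromosome 4, 43002343 to 43010506, minus strand), averaged 15.4 CPM ± 2.61 over Control ovaries, 13.1 ± 1.53 over Aged and 14.7 ± 1.13 over Aged+CF ones, with overlapping groups and a log2 fold change of -0.24 (adjusted p = 0.332, edgeR). The difference between the fold changes of Fanca and Fancg was not tested.

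Fancb, a scaffold of the catalytic module on the X chromosome (164980592 to 164997272, plus strand), had the fewest reads of the members. It was at 2.63, 3.99, 2.59 and 3.45 CPM in Control, at 1.31, 2.47 and 1.54 CPM in Aged and at 3.15, 2.47 and 2.86 CPM in Aged+CF, from 22 to 65 reads per ovary. The Control and Aged ranges did not overlap, while Aged 33 and Aged+CF 32 differed only beyond the third digit. The log2 fold change in Aged against Control was -0.84 (SE 0.28), with an unadjusted p of 0.0146 and an adjusted p of 0.0730 in edgeR. With all ovaries kept, the adjusted p was 0.0479 in DESeq2 and 0.0253 in limma on log2 FPKM, both below the threshold. The deposited FPKM are scaled to total reads, without TMM. The TMM factors ran from 1.019 to 1.05 in Control and from 0.8708 to 1.003 in Aged. FPKM therefore sets Aged lower against Control than CPM does. Without Aged 33, the highest of the Aged ovaries, the log2 fold change was -1.11, with an adjusted p of 0.0328 in edgeR, and the unadjusted p was 0.0719 without Aged 31 and 0.0502 without Aged 34. Fancl, the catalytic subunit of the same module (chromosome 11, 26386135 to 26471876, plus strand), averaged 10.5 CPM ± 0.861 over Control ovaries, 9.68 ± 0.661 over Aged and 9.13 ± 0.399 over Aged+CF ones, and its log2 fold change in Aged against Control was -0.12 (95% interval -0.40 to 0.17, adjusted p = 0.572, edgeR).

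**Figure D1:**
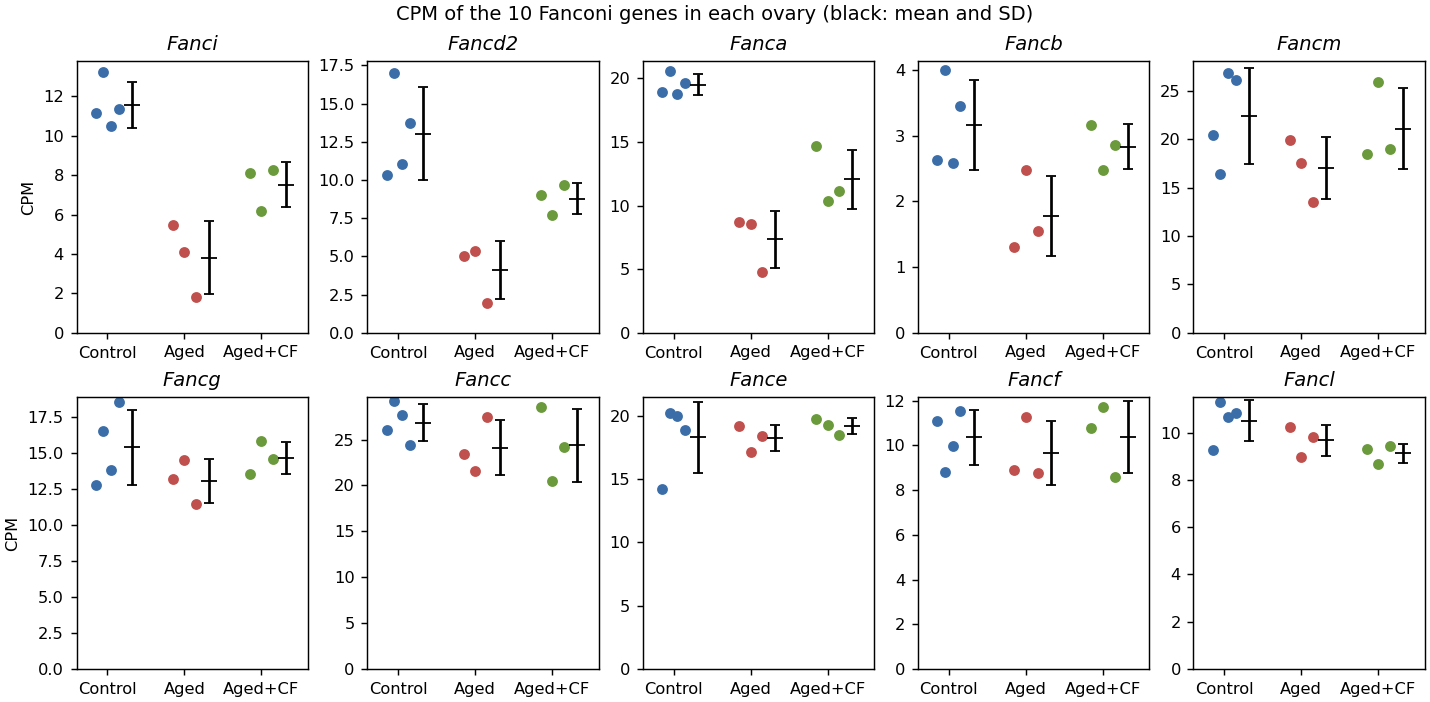
CPM (y axis, from 0) of each of the 10 genes in Control (blue, n = 4), Aged (red, n = 3) and Aged+CF (green, n = 3), 1 point per ovary, with black bars for the mean and SD. In the panels of Fanci, Fancd2 and Fanca the 3 groups separate, with Aged+CF between Aged and Control, and in those of Fancc, Fance, Fancf, Fancg, Fancl and Fancm they overlap.

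Fancc (chromosome 13, 63285043 to 63497278, minus strand), Fance (chromosome 17, 28313519 to 28326572, plus strand) and Fancf (chromosome 7, 51860577 to 51862267, minus strand) form the module that helps the core complex to hold its substrate. Fancc averaged 26.8 CPM ± 2.04 over Control ovaries, 24.1 ± 2.98 over Aged and 24.4 ± 4.001 over Aged+CF ones. Fance was at 18.3 CPM ± 2.81, 18.2 ± 1.01 and 19.1 ± 0.633 in the same order, and Fancf at 10.4 CPM ± 1.23, 9.65 ± 1.42 and 10.4 ± 1.61. All 3 genes overlapped between every pair of groups. Their log2 fold changes in Aged against Control were -0.15, -0.01 and -0.10, with 95% intervals of -0.46 to 0.16 for Fancc, -0.31 to 0.30 for Fance and -0.48 to 0.27 for Fancf, so that a fall of the size seen in Fanca lay outside each interval. The sign of the Fance value changed with the scaling method.

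Fancm, a DNA translocase that anchors the core complex to chromatin, lies on chromosome 12 (65075603 to 65132058, plus strand). It was at 20.4, 16.4, 26.9 and 26.1 CPM in Control, at 20.0, 17.6 and 13.6 CPM in Aged and at 18.5, 25.9 and 19.0 CPM in Aged+CF. The groups overlapped, Control 32 being below both Aged 31 and Aged 33. Its log2 fold change in Aged against Control was -0.40 (95% interval -0.88 to 0.08, adjusted p = 0.234, edgeR).

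Of all genes tested in Aged against Control, 11.1% were called at an adjusted p, 6.06% were called lower at an adjusted p, 18.2% were called at an unadjusted p and 27.5% had groups that did not overlap. Of the 10 members, edgeR called 3 at an adjusted p, all lower, and 4 at an unadjusted p, and 4 had groups that did not overlap. DESeq2 and limma on log2 FPKM each called 4 lower at an adjusted p, Fancb being the fourth. The shares above are those of edgeR and give no background for the other tools. All 10 log2 fold changes were below 0, against 9491 of the 18956 genes tested, though Fance at -0.006 changed sign with the scaling method. Their median was -0.32, against a median near 0 over all genes tested. By role, the 7 core genes had a median log2 fold change of -0.15 and the 2 ID genes one of -1.64. These counts describe a list chosen with results known, and no test of the list was made.

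**Figure D2:**
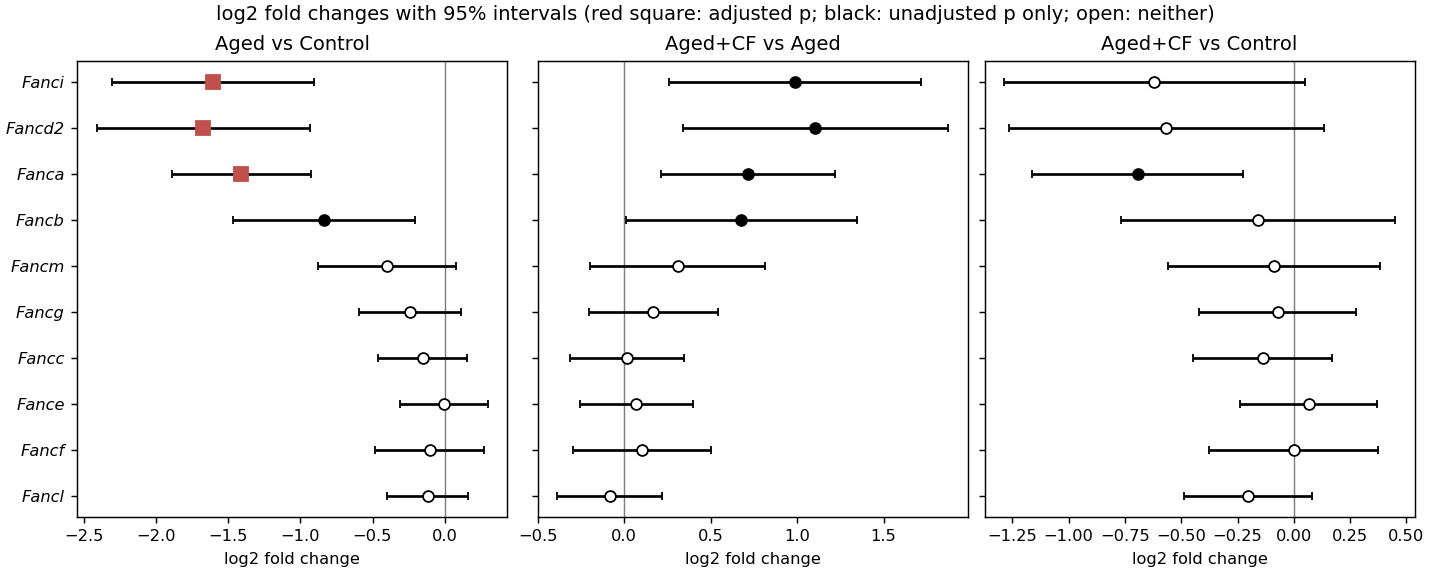
log2 fold changes (x axis, its range differing between panels) of the 10 genes in the 3 comparisons, with 95% intervals from the edgeR fit. Red squares mark genes called at an adjusted p, filled circles those called at an unadjusted p only, and open circles those called at neither. The only red squares are Fanci, Fancd2 and Fanca in Aged against Control.

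The extract was compared with untreated ovaries of the same labelled age. In Aged+CF against Aged, 0 of the 10 members were called at an adjusted p in edgeR, where 0.00528% of all genes were called, and 4 were called at an unadjusted p, all higher, where 7.96% of all genes were called and 3.91% were called higher. DESeq2 called 1 member at an adjusted p, Fancd2 at 0.0453, and limma on log2 FPKM called 0. How many of all genes DESeq2 called here was not counted, so this call has no background. The log2 fold changes of the 4 genes were 1.11 (SE 0.34, unadjusted p of 0.0094 and adjusted p of 0.197) for Fancd2, 0.99 (SE 0.33, 0.0130 and 0.211) for Fanci, 0.72 (SE 0.23, 0.0101 and 0.201) for Fanca and 0.68 (SE 0.30, 0.0473 and 0.301) for Fancb, all from edgeR. The groups of these 4 genes did not overlap, against 18.6% of all genes tested, with the near tie of Fancb described above. The other 6 members had log2 fold changes between -0.08 for Fancl and 0.31 for Fancm. The call at an unadjusted p held for 2 members, Fanci and Fancd2, without Aged 34 and likewise without Aged+CF 30. Fancb was near the threshold: its unadjusted p in edgeR was 0.0501 with no filter on low counts and 0.0848 with only the groups compared. With 1 ovary left out it ran from 0.00654 to 0.164. It was then below 0.05 only without Control 32 and without Aged 33, so the call was lost without any other ovary.

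In Aged+CF against Control, 0 members were called at an adjusted p in edgeR, DESeq2 or limma on log2 FPKM, against 0.179% of all genes in edgeR, and 1 was called at an unadjusted p, against 7.69%. That gene was Fanca, with a log2 fold change of -0.69 (SE 0.21), an unadjusted p of 0.0081 and an adjusted p of 0.193 in edgeR. Without Aged 34, which changes the shared estimate of the spread, its adjusted p was 0.0408, and with only the groups compared in the fit it was 0.0397. Fanci and Fancd2 had log2 fold changes of -0.62 (95% interval -1.29 to 0.05) and -0.57 (-1.27 to 0.13). The groups of Fanca, Fanci and Fancd2 did not overlap, against 21.9% of all genes tested, and every Aged+CF ovary was below every Control ovary in each of the 3 genes.

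The 3 comparisons share their ovaries, so that Aged lies in both contrasts that moved: an Aged group that is low raises the second fold change as it lowers the first. The values of the ID genes and Fanca are given side by side, as log2 fold changes of -1.67 and 1.11 for Fancd2, -1.61 and 0.99 for Fanci and -1.41 and 0.72 for Fanca in Aged against Control and Aged+CF against Aged. Aged was also the most variable group, with a biological coefficient of variation over all genes of 0.377, against 0.209 in Control and 0.193 in Aged+CF. In Aged 34, 7 of the 10 members lay below the lowest Control ovary, against 5 in Aged 31 and 6 in Aged 33. In Aged+CF the number was 3, 6 and 5 for ovaries 30, 32 and 34. The share of all genes below the lowest Control ovary was not counted for any ovary, so these numbers have no background. Some margins were small: Fancf was at 8.77 CPM in Aged 34, against 8.79 CPM in the lowest Control ovary.

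**Figure D3:**
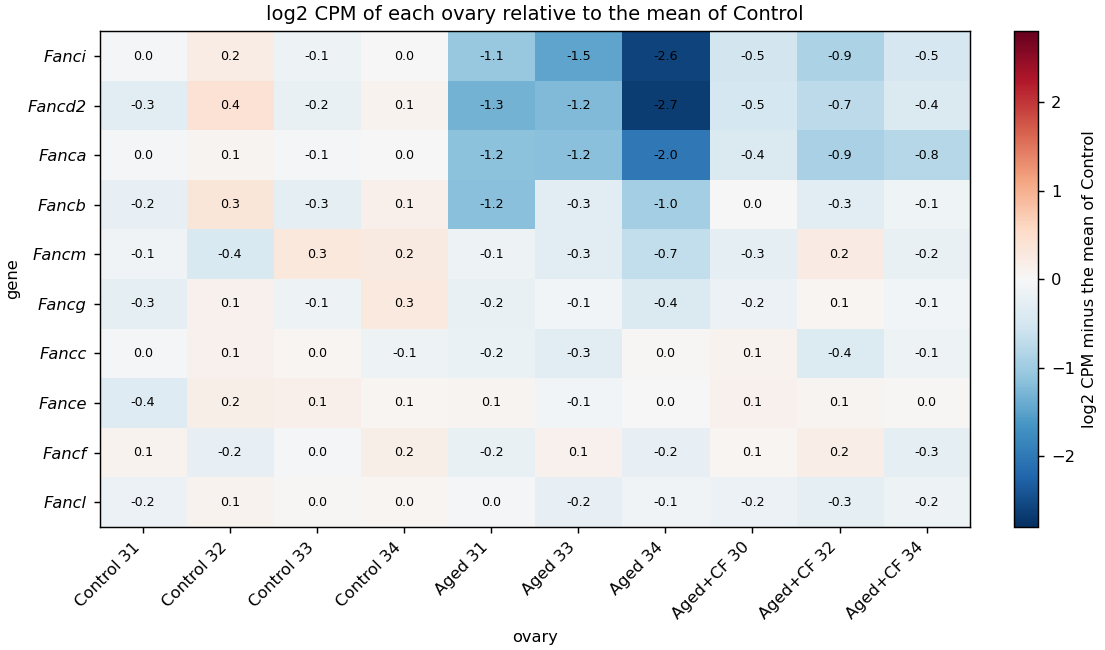
log2 CPM of each gene (rows) in each ovary (columns), minus the mean of the 4 Control ovaries for that gene, with the value printed in each cell and blue for lower. The rows of Fanci, Fancd2 and Fanca are blue in all Aged ovaries, darkest in Aged 34, and paler in Aged+CF.

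Levels of different genes are compared per length, as FPKM. The order rests on the gene lengths implied by the deposited FPKM, from 1691 bases for Fancf to 13837 for Fancc. Without scaling to length it differs: in Control, Fancf averaged 10.4 CPM and Fancc 26.8 CPM. In Control, Fancf was highest at 6.33 FPKM ± 0.785 (SD, n = 4), followed by Fancl at 2.66 and Fancg at 2.41, and Fancb was lowest at 0.864 ± 0.176. The range of each gene overlapped that of the next gene in the order, except between Fancf and Fancl and between Fancd2 and Fancb. In Aged, Fanca, Fanci, Fancb and Fancd2 were the lowest 4, at 0.630, 0.515, 0.438 and 0.397 FPKM, and a gap lay between them and Fancm at 1.17 FPKM. In Aged+CF, Fanca was at 1.11, Fanci at 1.095, Fancd2 at 0.920 and Fancb at 0.755 FPKM, and Fancm at 1.54 FPKM. There the ranges of Fanca and Fancm met only by a near tie in Aged+CF 30, at 1.375 and 1.373 FPKM. The ratio of Fanca to Fancc in FPKM, chosen after the values were seen, ran from 0.859 to 1.02 over Control ovaries, 0.221 to 0.5002 over Aged and 0.585 to 0.652 over Aged+CF ones.

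The promoters of the members were read from RefSeq windows of 300 bases on GRCm38.p6, 250 before and 50 after the start, which 9 of the 10 members had and Fancd2 did not. The 140 bases before the start are shown for Fanca and Fanci, which fell in Aged, and for Fancm and Fancf, which were not called, to set their letters side by side. The start is that of the RefSeq window. For Fanci it lies within the gene as placed above, which begins at base 79391929, so the bases upstream of that were not read. The windows of Fancc and Fancl also lay within their genes. Capitals mark forms of the E2F site, namely the word TTCCCGC with its variants (TTGGCGC first, then the variant TTCGCGC, and last the variant TTGCCGC), and the CCAAT word, each on either strand.
Fanca, chr8:123318577-123318716, minus strand: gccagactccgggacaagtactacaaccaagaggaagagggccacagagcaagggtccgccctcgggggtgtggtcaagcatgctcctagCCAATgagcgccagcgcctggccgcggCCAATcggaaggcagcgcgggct
Fanci, chr7:79392198-79392337, plus strand: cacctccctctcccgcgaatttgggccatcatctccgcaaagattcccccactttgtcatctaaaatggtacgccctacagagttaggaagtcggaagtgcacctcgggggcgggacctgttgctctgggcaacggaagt
Fancm, chr12:65075463-65075602, plus strand: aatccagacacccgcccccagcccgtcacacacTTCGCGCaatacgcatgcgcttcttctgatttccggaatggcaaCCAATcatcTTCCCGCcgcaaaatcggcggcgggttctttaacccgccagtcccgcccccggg
Fancf, chr7:51862268-51862407, minus strand: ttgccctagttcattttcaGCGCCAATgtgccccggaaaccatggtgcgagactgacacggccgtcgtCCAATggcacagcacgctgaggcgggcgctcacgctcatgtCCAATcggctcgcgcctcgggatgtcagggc
Fanca held 2 CCAAT words and no E2F word, and Fanci held neither within these 140 bases. The only E2F word in the Fanci window was downstream of the RefSeq start, at 18 to 24 bases from it. Fancm held 2 E2F words and 1 CCAAT, and Fancf 1 E2F word that overlaps the first of its 3 CCAAT words. Over the full windows an E2F word was in 5 of 9 members (Fancb, Fancf, Fancg, Fancm and Fanci) and in 9.574% of all 32851 windows, CCAAT was in 6 of 9 and 37.41%, and the CHR word TTTGAA with its variant TTCGAA, found in many mitotic promoters, were in 0 of 9 and 19.23%. The E2F words lay in Fanci, called lower, and in Fancf, Fancg and Fancm, not called. They also lay in Fancb, which edgeR called lower at an unadjusted p only, and DESeq2 and limma on log2 FPKM at an adjusted p. Fanca, called lower, had no E2F word. A match describes letters in a window, not a bound site.

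The other genes of the pathway formed a list of 35, all tested. In Aged against Control, 11 were called lower and 0 higher at an adjusted p in edgeR, against 6.06% of all genes called lower. Of the 35 fold changes, 28 were below 0, against 9491 of all 18956 genes tested, with a median log2 fold change of -0.24. DESeq2 and limma on log2 FPKM each called 13 lower and 0 higher, with no count over all genes for these tools. At an unadjusted p, edgeR called 13 lower and 0 higher, against 1790 of all 18956 genes called lower. Among those with the largest changes were Rmi2 of the BLM dissolvasome (log2 fold change -1.87), the helicase Brip1 (-1.78), Bard1, the partner of BRCA1 (-1.75), Brca1 (-1.63) and Ube2t, the conjugating enzyme of the core complex (-1.60), with adjusted p between 0.00497 and 0.0151 in edgeR. Ube2t averaged 9.47 CPM ± 2.37 over Control ovaries, 3.12 ± 0.932 over Aged and 4.82 ± 0.865 over Aged+CF ones. Usp1 and Wdr48, which act together in removing the ubiquitin, had log2 fold changes of -0.15 and -0.19 and were not called. Of the 11 genes, 7 belonged to the homologous recombination arm, and none of the 5 core-associated genes (Faap20, Faap24, Faap100, Cenps and Cenpx) was among them. Cenps was called lower at an unadjusted p (log2 fold change -1.18, unadjusted p = 0.0173, adjusted p = 0.0809, edgeR), with groups that did not overlap.

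Between Aged+CF and Aged, 0 of these 35 genes were called at an adjusted p in edgeR and 6 were called higher at an unadjusted p. Of all genes tested, 3.91% were called higher at an unadjusted p. Of the 35 genes, DESeq2 called 4 higher at an adjusted p and limma on log2 FPKM called 0, again with no count over all genes. Brip1 had a log2 fold change of 1.23, Bard1 of 1.14, Brca1 of 1.02 and Brca2 of 0.78, with unadjusted p between 0.00098 and 0.00955 and adjusted p between 0.159 and 0.199 in edgeR. Against Control, 0 were called for Aged+CF at an adjusted p in edgeR and 6 were called lower at an unadjusted p, among them Rmi2 at -1.14 and Ube2t at -0.97 on the log2 scale. DESeq2 called 1 lower there and limma on log2 FPKM called 0. Of all 18956 genes tested, edgeR called 826 lower in that comparison at an unadjusted p.

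**Figure D4:**
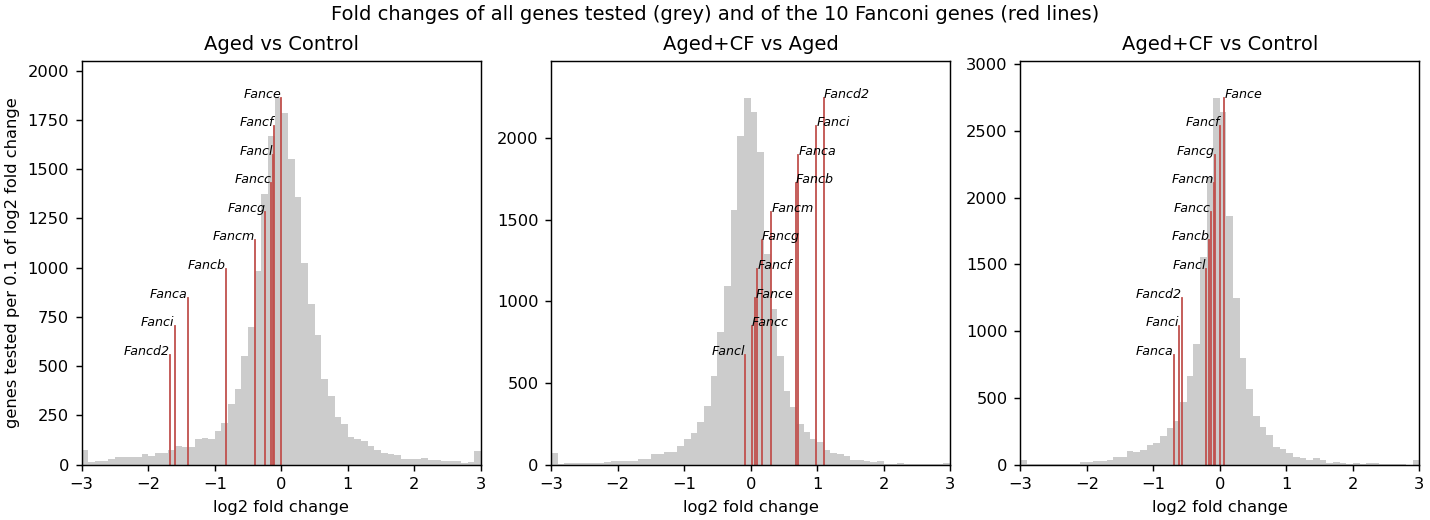
Histograms of the log2 fold changes of all 18956 genes tested (grey, in steps of 0.1, values beyond 3 gathered in the outer bars), with a red line for each of the 10 genes. The height of a red line has no meaning. In Aged against Control the lines of Fancd2, Fanci and Fanca lie in the left tail, and most of the others lie in the central peak.

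Across the 10 ovaries the genes with the pattern most like Fanci, by the root mean square difference of standardised log2 CPM, were the mitotic gene Kif14 (0.0848), Iqgap3 (0.0851) and the mitotic gene Kntc1 (0.0862). For Fancd2 they were C86187 (0.129), Cenph (0.130) and the spindle checkpoint kinase Bub1b (0.133). Fancd2 stood at rank 73 of the genes tested in likeness to Fanci, and Fanci at rank 50 in likeness to Fancd2. This is a description over 10 ovaries that share their group differences.

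Ovarian cells differ in how much they express these genes, and in bulk RNA fewer cells of a type and less RNA per cell cannot be told apart. The summed CPM of 20 genes of dividing cells, among them Mki67 and Top2a, ran from 854 to 1138 over Control ovaries, 122 to 401 over Aged and 452 to 694 over Aged+CF ones, and all 20 were lower in Aged than in Control, 16 of them called at an adjusted p. The sum of 20 S phase genes was 743 to 1031, 312 to 539 and 528 to 601 CPM in the same order, with 18 called lower in Aged. The sum of 25 oocyte genes was 782 to 1022, 128 to 320 and 432 to 585 CPM, with 16 called lower. Of all genes tested, 6.06% were called lower in Aged at an adjusted p. In Aged 34, the ovary with the lowest Fanci, Fancd2 and Fanca, all 3 sums were the lowest of the 10 ovaries. The defining oocyte marker Zp3 was at 66.7 CPM ± 14.0 in Control and from 0.937 to 14.5 CPM in Aged, and Gdf9 at 96.5 CPM ± 13.9 and from 3.64 to 25.7 CPM. Whether these lists account for the members' values was not tested.

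The sum of 12 immune genes moved the other way, from 256 to 303 CPM over Control ovaries, 524 to 1331 over Aged and 437 to 457 over Aged+CF ones, highest in Aged 34, with 8 of 12 called higher in Aged at an adjusted p. The 12 granulosa genes summed to 5805 to 9140, 3614 to 4902 and 3354 to 5693 CPM, with 2 called lower, and the 10 theca and luteal genes to 3886 to 9660, 14285 to 35097 and 11599 to 20185 CPM, with 7 called higher and 1 lower. Of all 18956 genes tested, 948 were called higher and 1148 lower in Aged at an adjusted p. Of the 7 oviduct genes tested, 0 were called in Aged against Control in edgeR at an adjusted or an unadjusted p, and 0 by DESeq2 and by limma on log2 FPKM. Between Aged+CF and Aged, edgeR called 0 genes of any of these lists at an adjusted p. At an unadjusted p it called 9 of 20 dividing cell, 2 of 20 S phase and 8 of 25 oocyte genes higher and 9 of 12 immune genes lower. It also called 1 of 12 granulosa genes higher, 1 of 10 theca and luteal genes higher and 2 lower, and 2 of 7 oviduct genes lower. Of all 18956 genes tested, it called 741 higher and 768 lower at an unadjusted p. At an adjusted p, DESeq2 called 4 dividing cell, 1 S phase and 2 oocyte genes higher, 3 immune genes lower, 1 theca and luteal gene in each direction and 0 granulosa or oviduct genes, and limma on log2 FPKM called 0 in every list. The calls of these 2 tools over all genes were not counted. The summed CPM of the 8 oviduct genes was 321 in Aged 34 and 409 in Control 33, against 9.80 to 38.2 in the other 8 ovaries. The part of any of these lists in the members' values was not tested.

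**Figure D5:**
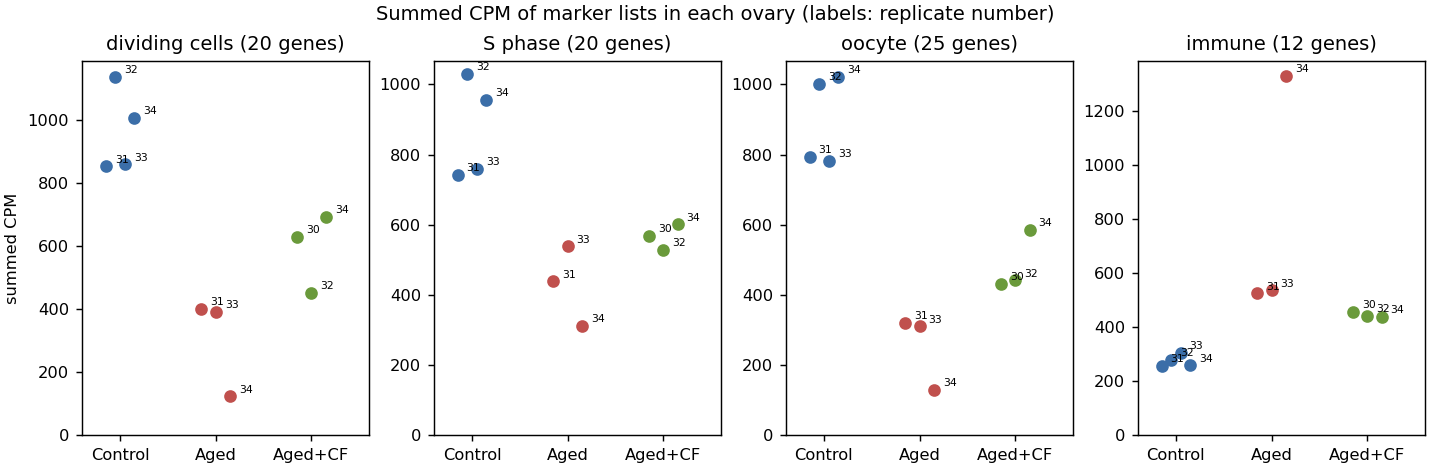
Summed CPM (y axes, from 0) of the genes of dividing cells, of S phase, of oocytes and of immune cells in each ovary, with the replicate number beside each point. Aged 34 is lowest in the first 3 panels and highest in the immune panel.

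The strand setting of the counting is not given in the sources used here, and some members share bases with other genes, so that reads there are uncertain. On the opposite strand, Fanca overlaps Zfp276 over 1446 bases and lies wholly within the Gm20388 locus, Fanci overlaps Polg over 4034 bases, Fancd2 overlaps Fancd2os over 257 bases, Fancf overlaps Gas2 over 253 bases and Fancl overlaps Vrk2 over 555 bases. Fancc overlaps 10 annotated genes, while Fancb and Fancg overlap no annotated gene.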

How the data were processed

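Total RNA of 10 mouse ovaries was sequenced. The authors deposited 1 table of the whole series, with whole-number counts per gene and FPKM (fragments scaled to gene length and library size) for each ovary. The submitters' processing notes name TopHat, Cufflinks 2.1.1 and GRCm38.p4; the series text and the study's methods name different sequencers, and the counting program and its strand setting are not given in the sources used here. The methods also give a slightly lower age for the old mice than the labels. FPKM as deposited equalled counts divided by gene length and total reads, within 0.000839 of the implied length.

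Counts were fitted with edgeR 4.0.16 (R 4.3.3) after TMM scaling and its filter on low counts, all 10 ovaries in 1 fit, by the quasi-likelihood F test with Benjamini-Hochberg adjustment over 18956 genes. Standard errors are the log2 fold change divided by the root of F, and 95% intervals use t quantiles. CPM uses the TMM-scaled totals. A shorter version of the edgeR fit was run on simulated counts with known changes. The simulation gave every group the same spread, whereas Aged was the most variable group here. Depth was 15761789 to 21318254 reads. Members of 1 group differed by more than counting noise in every pair (chi-square per degree of freedom at least 15.7), so no library was taken as a repeat of another. Alternatives were DESeq2 1.42.0 size factors and Wald test, no filter, limma 3.58.1 on log2(FPKM + 0.1), only the groups compared, a replicate block and leaving out each ovary. Shares of all genes called were counted for the main edgeR fit only.

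The members and all lists were chosen with earlier results of these data known. Named were all members; of the other pathway genes, up to 6 with the largest absolute log2 fold change per comparison among those called (at an unadjusted p where no gene was called at an adjusted p) with groups that do not overlap; the 3 genes most like Fanci and Fancd2; and the marker list sums with up to 2 markers each. One gene that this rule names is not reported here. Genes named beyond this for their role were chosen after their values were seen. Coordinates and overlaps are from GENCODE M21, and promoter windows from RefSeq.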

Additional observations from a re-analysis of the deposited data

Results flagged for a closer look

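The summed CPM of the oviduct genes in Control 33 was 408.6, far above the other Control ovaries, with a gap to the nearest of them of 0.986 of the group's range. Of 18 groups of 4 ovaries tested for a sample that stands apart, 10 of them values of the members, this was the only one, and chance flags about 1 in 20 groups. In Aged the same sum was 321 CPM in Aged 34, the ovary with the lowest Fanci, Fancd2 and Fanca, against 11.1 in Aged 31 and 10.2 in Aged 33. Control 33 was the lowest Control ovary for Fanci, Fanca and Fancb and the highest for Fancm, and the bearing of oviduct RNA on them was not tested.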

How the results depend on the processing

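Across 16 alternatives, Fanci, Fancd2 and Fanca stayed lower in Aged than in Control, with log2 fold changes of -1.94 to -1.23, -1.87 to -1.29 and -1.52 to -1.14. They were called at an adjusted p in all alternatives but the replicate block. The medians of the members kept their sign, at -0.38 to -0.22, 0.13 to 0.30 and -0.21 to -0.12 with 1 ovary left out (Aged against Control, Aged+CF against Aged, Aged+CF against Control). With 1 ovary left out, the members called in Aged against Control numbered 3 to 4 at an adjusted p, in Aged+CF against Aged 2 to 4 at an unadjusted p (2 without Aged 34 and without Aged+CF 30), and in Aged+CF against Control 0 to 1 at an adjusted p (1 without Aged 34) and 1 to 2 at an unadjusted p (2 without Aged 31 and without Aged 34).

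DESeq2 and limma on log2 FPKM each called 4 members in Aged against Control at an adjusted p, and DESeq2 called 1 in Aged+CF against Aged. With no filter on low counts, and with only the groups compared, 3 were called in Aged+CF against Aged at an unadjusted p. In Aged+CF against Control, DESeq2, limma on log2 FPKM and a fit of only the groups compared each called 2 at an unadjusted p, and the last called 1 at an adjusted p. The cause was not tested. The number in the titles does not establish a pairing: same-numbered ovaries had correlations of their deviations of 0.138, -0.185 and 0.0696 in Aged against Control, -0.0613 in Aged+CF against Aged and -0.0874 and 0.153 in Aged+CF against Control. With the replicate block, 0 members were called in Aged against Control at an adjusted p (Fanca 0.0605, Fanci 0.0781, Fancd2 0.0973) and 0 in Aged+CF against Aged at an unadjusted p.

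Changes of sign were in log2 fold changes near 0. For Aged against Control, Fance was 0.0223 with the size factors of DESeq2, 0.0239 with its Wald test, 0.0499 with the replicate block and -0.111 to 0.0649 with 1 ovary left out. For Aged+CF against Control, Fancf was 0.0215 with the size factors of DESeq2, 0.0169 with its Wald test, 0.0197 with only the groups compared, 0.0114 with the replicate block and -0.0984 to 0.145 with 1 ovary left out. There, with 1 ovary left out, Fance ran from -0.0391 to 0.118, Fancg from -0.152 to 0.0284 and Fancm from -0.261 to 0.0223, and the replicate block gave -0.0213 for Fance and 0.153 for Fancm. For Aged+CF against Aged, Fancl was 0.00941 by limma on log2 FPKM, Fancc was -0.000295 with only the groups compared, -0.171 with the replicate block and -0.124 to 0.125 with 1 ovary left out, and Fance was -0.0712 with the replicate block.

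Low counts limit Fancb in every group and Fanci and Fancd2 in Aged, where single ovaries held 22 to 92 reads of these genes.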
